A study of Mus musculus with 6 samples.

Results

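The cytochrome P450 genes were examined in mouse liver 1 h after interleukin-6 (IL-6). They were taken as all genes whose symbol is Cyp followed by a family number, a letter and a gene number (Cyp1a2, Cyp2e1, Cyp7a1), read from array probe sets that the platform annotation pairs with exactly 1 gene symbol. By this rule 81 of the 19938 genes on the array were members, each with 1 probe set, and they fell into 14 families, of which family 2 held 43 genes, family 4 held 13, family 3 held 6 and the other families 1 to 3 each. The livers came from 10-week-old male C57BL6 mice that had gone without food for 16 h. Of the 6 arrays, 3 were from mice injected intraperitoneally with saline and 3 from mice given 100 ng of IL-6 per mouse by the same route. Both groups were fasted, and the labels name no genetic change in either. Nothing in the labels says in so many words that each array is a different mouse, so the tests below measure the spread between samples, part of which may be technical.

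Cytochromes P450 are heme enzymes, most of them anchored in the endoplasmic reticulum, that insert an oxygen atom into their substrates. Those in the endoplasmic reticulum take electrons from the reductase encoded by Por. Families 1 to 3 handle drugs, pollutants and plant compounds as well as some endogenous lipids, family 4 hydroxylates fatty acids, and the higher-numbered families make or break down bile acids, steroid hormones, retinoic acid and vitamin D. Many are controlled by ligand-activated transcription factors such as AhR (family 1), CAR and PXR (families 2 and 3) and PPARalpha (family 4). Inflammatory cytokines, IL-6 among them, are known to lower many hepatic P450 transcripts over longer exposures. The comparison here addresses the first hour.

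The arrays labelled IL-6 carried the response to the cytokine: Socs3, the feedback inhibitor of JAK-STAT signalling, read 6.18 to 6.61 on the log2 scale in the saline arrays and 9.45 to 9.63 in the IL-6 arrays. All array values here are RMA log2 values, on which a difference of 1 is a 2-fold change. Pearson correlations over all probe sets were 0.989 to 0.991 within groups and 0.987 to 0.990 between them. The liver label was borne out by hepatocyte markers (5 of 7 listed ones measured), whose mean level was 12.50 to 12.57 in the saline arrays and 12.54 to 12.58 in the IL-6 arrays. Among markers of 8 non-hepatocyte cell types and of pericentral and periportal hepatocytes, 1 gene passed the test, the neutrophil gene S100a8, which read 3.59, 3.51 and 3.69 with saline and 4.31, 4.35 and 4.07 with IL-6. S100a8 passed in 1 of the 6 fits that leave out 1 array, that without IL-6 replicate 3, and its limma adjusted p was 0.0532 to 0.128 in the others. The mean level of the neutrophil markers spanned 4.16 to 4.22 with saline and 4.08 to 4.35 with IL-6.

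No cytochrome P450 gene passed the test after 1 h of IL-6. In limma, which fits all genes together, 0 of 81 members were higher and 0 were lower at a Benjamini-Hochberg adjusted p under 0.05, while 0.386% of all genes were higher and 0.0351% lower. A share of that size would amount to less than 1 gene in a group of 81, so the count of 0 is near the background. Members had limma adjusted p-values from 0.281 to 0.992 (n = 3 arrays per group). At an unadjusted limma p under 0.05, 3 members were higher (3.78% of all genes) and 5 were lower (2.83% of all genes), in all 8 or 9.88% of members beside 6.62% of all genes. Differences were small on both sides of 0, with 48 members above (51.1% of all genes) and 33 below, a median of 0.03 and a median size of 0.09. Over all genes the median difference was 0.003 and the median size 0.07. In 11 members (13.6%) the 3 IL-6 values lay wholly on one side of the 3 saline values, as they did in 11.6% of all genes. These were 7 higher (6.15% of all genes) and 4 lower (5.48%). With 3 arrays a group, the smallest two-sided p of an exact permutation test is 0.1. In whole liver, fewer cells of a type and less RNA per cell cannot be told apart.

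The size of change that these arrays leave room for differed from gene to gene. For 79 of 81 members the 95% confidence interval of the difference lay within 1 log2 unit of 0, that is, within a 2-fold change in either direction (99.5% of all genes). The exceptions were Cyp1a1 and Cyp1a2. A narrower range of 0.5 log2 units contained the whole interval of 67 members (94.3% of all genes). In 18 members the mean level was under the 25th percentile of all genes (4.59), where a difference is hard to separate from background, and 63 members were at or above it.

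**Figure D1:**
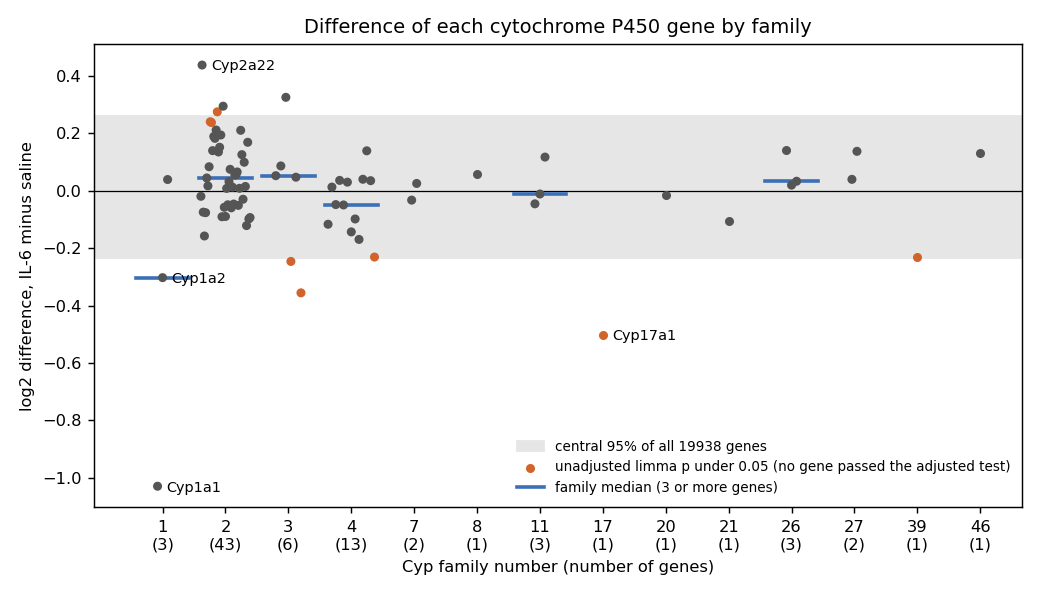
Each point is 1 of the 81 Cyp genes, placed by family number (with the number of genes) and by its log2 difference, IL-6 minus saline; blue lines are medians of families with 3 or more genes and the grey band, from -0.23 to 0.26, holds the central 95% of all genes. Of the 81 points 72 lie in the band, and Cyp1a1 at -1.03 and Cyp17a1 at -0.50 lie lowest.

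Of the 8 members with an unadjusted p under 0.05, Cyp17a1, whose enzyme makes precursors of androgens, had the largest difference. The saline arrays read 10.03, 10.18 and 9.57 and the IL-6 arrays 9.47, 9.47 and 9.34 (replicates 1 to 3 in each, as in all such sentences). All IL-6 values were lower than all saline values, and saline replicate 3 lay closest to them. The difference was -0.50 ± 0.14 (standard error, limma adjusted p = 0.390), a level 0.706 of that with saline. Leaving out saline replicate 3 gave -0.68 with a limma adjusted p of 0.0351, the one setting in which a member passed. Leaving out saline replicate 2 gave -0.37 (limma adjusted p = 0.718).

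Cyp39a1, which hydroxylates oxysterols on the way to bile acids, read 9.73, 9.64 and 9.62 with saline and 9.46, 9.28 and 9.55 with IL-6. The groups did not overlap, and the difference was -0.23 ± 0.09 (limma adjusted p = 0.652). Cyp4x1, a family 4 enzyme, was dim, with 4.59, 4.20 and 4.40 against 4.17, 4.21 and 4.12, and saline replicate 2 lay among the IL-6 values. The remaining 5 were Cyp3a25 and Cyp3a57, both lower, and Cyp2c29, Cyp2c37 and Cyp2c55, all higher, and they are described with their subfamilies.

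**Figure D2:**
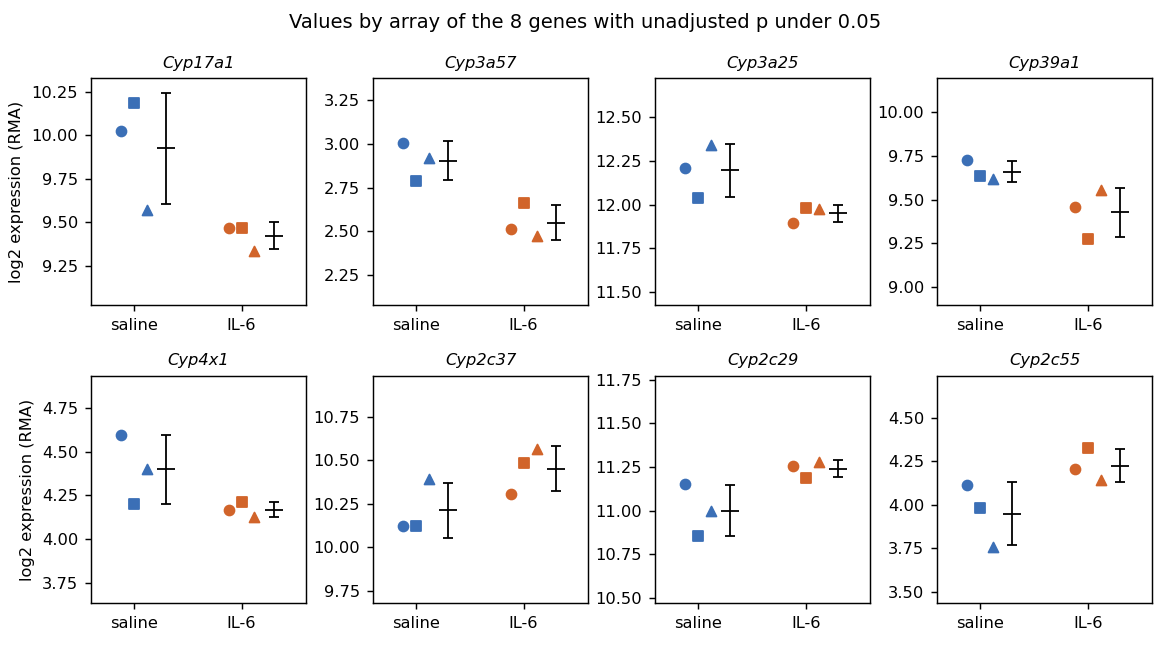
RMA log2 values by array of the 8 Cyp genes with an unadjusted limma p under 0.05, saline in blue and IL-6 in orange, circles, squares and triangles for replicates 1, 2 and 3, and black bars for the mean ± SD (n = 3). Every axis spans 1.3 log2 units. The groups are apart in all but Cyp2c37 and Cyp4x1, which follows in part from choosing the genes by p on the same values. Over all members the groups were apart in 13.6%, beside 11.6% of all genes.

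Family 1, the AhR-driven enzymes that oxidise polycyclic aromatic compounds, differed more between arrays of one group than between the groups. Cyp1a1 read 4.51, 5.19 and 7.56 with saline and 4.36, 5.35 and 4.45 with IL-6. Saline replicate 3 alone stood over 2 log2 units above every other array, and without it the groups overlapped as well. The difference of -1.03 ± 0.65 (limma adjusted p = 0.877, 95% confidence interval -2.49 to 0.43) became -0.12 without saline replicate 3 and -1.65 without saline replicate 1. Cyp1a2, the main family 1 enzyme of the liver, read 10.75, 10.54 and 11.69 with saline and 10.14, 11.40 and 10.53 with IL-6. The same pair of arrays, saline replicate 3 and IL-6 replicate 2, was highest for Cyp1a1 and for Cyp1a2. The Cyp1a2 difference of -0.30 ± 0.34 (limma adjusted p = 0.947) turned to 0.05 without saline replicate 3. Cyp1b1, which is also AhR-driven, did not share this order: it read 5.28, 5.05 and 5.19 against 5.47, 5.10 and 5.07.

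Of the genes around AhR, Ahr itself read 8.13, 8.22 and 8.54 with saline and 8.64, 8.77 and 8.79 with IL-6, a difference of 0.44 ± 0.11 that did not pass (limma adjusted p = 0.305). Ahrr, its repressor, had a difference of 0.07 ± 0.07, and Nqo1, a quinone reductase that AhR can induce, read 6.53, 5.69 and 6.34 against 5.84, 6.18 and 6.16. Neither was highest in saline replicate 3. The median deviation of the pericentral hepatocyte markers from their saline mean was 0.07 in saline replicate 3 and -0.04 in IL-6 replicate 2. Why Cyp1a1 and Cyp1a2 were high in these arrays was not tested.

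The start regions of these neighbouring genes are shown because both varied between the same arrays. The sequences are the 250 bases before the RefSeq start on GRCm38.p6, written 5′ to 3′ along the gene, with GCGTG, the core letters that AhR recognises, in capitals wherever it occurs on either strand. The Cyp1a1 window is chr9:57697363-57697612 on the plus strand and the Cyp1a2 window chr9:57683656-57683905 on the minus strand.
Cyp1a1: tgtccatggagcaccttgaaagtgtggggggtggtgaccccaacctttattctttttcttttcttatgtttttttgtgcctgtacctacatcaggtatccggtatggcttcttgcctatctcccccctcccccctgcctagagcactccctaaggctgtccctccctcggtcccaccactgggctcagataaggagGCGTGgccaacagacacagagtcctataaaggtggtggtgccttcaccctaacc
Cyp1a2: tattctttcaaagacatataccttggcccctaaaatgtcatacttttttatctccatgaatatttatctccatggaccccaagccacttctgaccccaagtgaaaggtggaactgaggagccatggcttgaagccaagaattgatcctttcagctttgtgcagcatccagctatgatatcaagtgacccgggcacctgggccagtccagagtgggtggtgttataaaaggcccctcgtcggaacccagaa
Cyp1a1 had 1 such core, beginning 54 bases before the start, and Cyp1a2 had none in this window. Among members with a RefSeq window, 13 of 62 held GCGTG (21%), beside 30.9% of all 27025 genes with one. A match is a description of the letters and not a measured binding site.

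**Figure D3:**
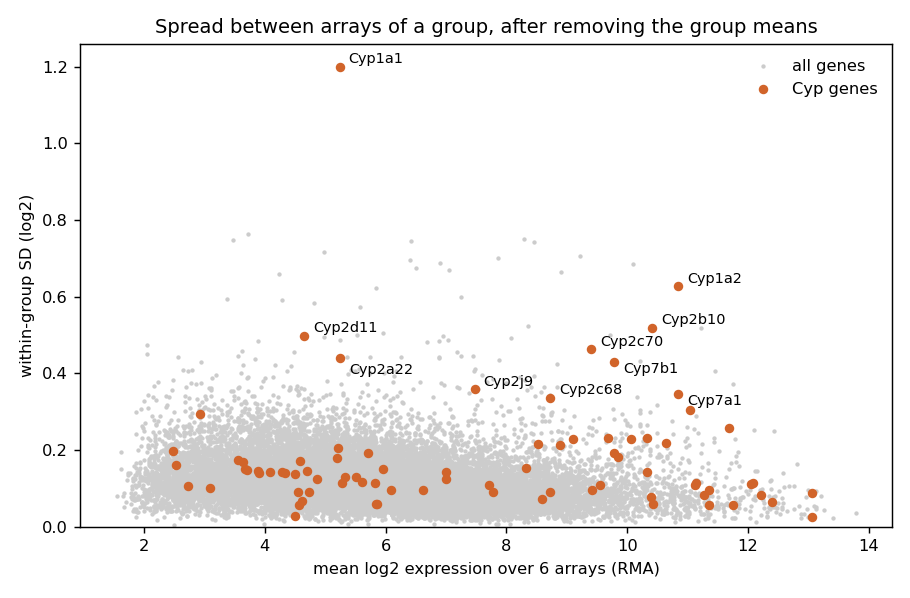
Within-group SD (log2 units, after removing the 2 group means) against mean log2 level over the 6 arrays, for all 19938 genes in grey and the 81 Cyp genes in orange; labels mark the 10 Cyp genes in the highest 1% of SD. Cyp1a1, at an SD of 1.20, lies above every other gene.

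The spread seen in family 1 extended to other members. Cyp1a1 had the highest within-group SD of all 19938 genes (1.20 log2 units), Cyp1a2 followed among the members at 0.63 and Cyp2b10 at 0.52. In all, 10 members (12.3%) lay in the highest 1% of genes by SD. Cyp2d11, Cyp2c70, Cyp2a22, Cyp7b1, Cyp2j9, Cyp7a1 and Cyp2c68 made up the rest, of which Cyp2d11, Cyp2a22, Cyp2j9 and Cyp2c68 are named after their values were seen. The median SD was 0.14 over members and 0.11 over all genes. At the other end, Cyp4a14, a fatty acid hydroxylase, had an SD of 0.02.

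Family 2, the largest, had 28 differences above 0 and 15 below, with a median of 0.04 and a range from -0.16 to 0.44; 3 members were higher at an unadjusted p under 0.05 and none was lower, 6.98% in either direction beside 6.62% of all genes. Of the 28 positive differences, 12 were in the Cyp2c genes, which epoxidise arachidonic acid and metabolise drugs. There 12 of 13 differences were above 0 (51.1% of all genes), with a median of 0.19. The median deviation of the 13 genes from their saline means was -0.01, -0.08 and -0.06 in the saline arrays and 0.10, 0.24 and 0.28 in the IL-6 arrays. The mean levels of the 13 genes overlapped between the groups, at 8.21, 8.06 and 8.02 in the saline arrays and 8.16, 8.33 and 8.32 in the IL-6 arrays. Counted by array, 8, 13 and 12 of the 13 genes were above their saline mean in IL-6 replicates 1, 2 and 3. In the saline arrays 4 to 6 were. The saline arrays set that mean, so their own deviations and counts centre on it by construction and are no separate comparison. The 13 genes are not replicates, and the subfamily was singled out after its values were seen. The median of the subfamily stayed between 0.14 and 0.24 over the alternative settings, with 11 to 13 of 13 genes above 0 wherever all were tested. The other variance priors, the replicate block and the other probe set choices cannot change these differences. Every setting reuses arrays from the same 6.

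Cyp2c29, a CAR-inducible enzyme, read 11.15, 10.85 and 11.00 with saline and 11.26, 11.19 and 11.28 with IL-6. The groups did not overlap, although saline replicate 1 came within 0.1 log2 units of the lowest IL-6 value, and the difference was 0.24 ± 0.09 (limma adjusted p = 0.633). Cyp2c37 read 10.12, 10.12 and 10.39 against 10.31, 10.48 and 10.56, with saline replicate 3 inside the range of the IL-6 arrays (0.24 ± 0.10, limma adjusted p = 0.727). Cyp2c55 had the values 4.11, 3.98 and 3.76 against 4.21, 4.33 and 4.14, which lie under the 25th percentile of all genes. Its groups were apart by a narrow margin (0.28 ± 0.10, limma adjusted p = 0.633).

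Cyp2c70, the mouse enzyme that makes muricholic acids, read 9.93, 9.14 and 8.70 with saline and 9.71, 9.33 and 9.61 with IL-6. The saline arrays alone spanned more than 1 log2 unit and enclosed all IL-6 values, so the difference of 0.29 ± 0.26 (limma adjusted p = 0.922) was within the spread. The subfamily is a tandem cluster of near copies, and probes may report more than 1 of its genes. A further probe set that the platform annotation shares between Cyp2c67, Cyp2c68, Cyp2c69 and Cyp2c40 had a difference of -0.03 ± 0.13.

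**Figure D4:**
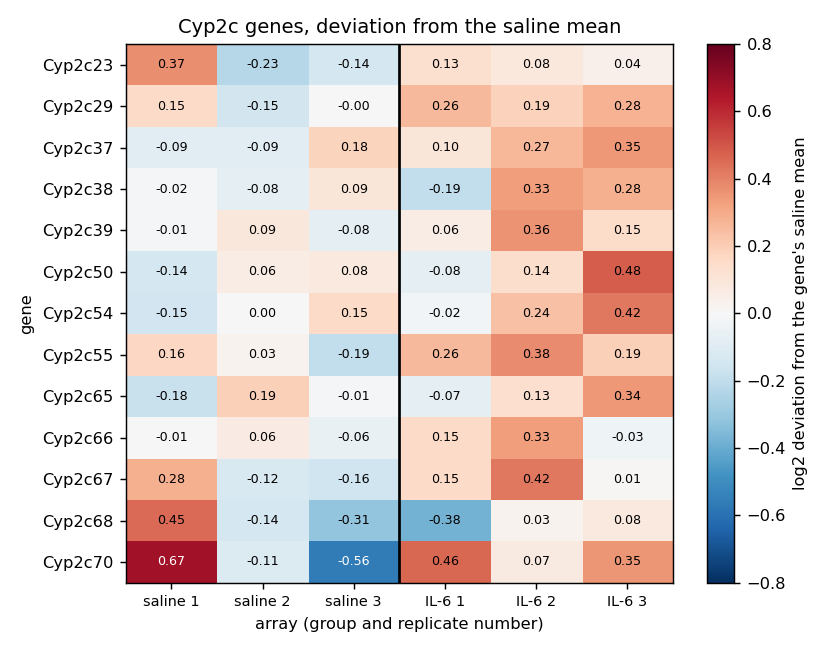
Heat map of the 13 Cyp2c genes (rows) in the 6 arrays (columns, saline 1 to 3 left of the line and IL-6 1 to 3 right of it); colour and printed numbers give the log2 deviation from the gene's saline mean. IL-6 replicate 2 is above 0 in all 13 rows, and Cyp2c70 runs from 0.67 to -0.56 within the saline arrays.

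Among the family 2 genes outside Cyp2c, none had an unadjusted limma p under 0.05, beside 6.62% of all genes. Because Cyp2c was set apart after its values were seen, its contrast with these genes is partly built in. Cyp2e1, which oxidises ethanol and acetone in pericentral hepatocytes, read 12.92, 13.10 and 13.08 with saline and 13.03, 13.06 and 13.17 with IL-6, a difference of 0.06 ± 0.08 (95% confidence interval -0.13 to 0.24). Its values lie near the upper end of the scale, where array signals can be compressed. Cyp2f2, a periportal enzyme, differed by 0.06 ± 0.07 with overlapping groups. Periportal markers, 5 of 8 measured and none called, had median deviations of -0.04, 0.06 and 0.01 in the saline arrays and -0.07, -0.14 and -0.10 in the IL-6 arrays. Cyp2j5, which epoxidises arachidonic acid, read 11.31, 11.27 and 11.30 against 11.37, 11.38 and 11.51. Its groups were apart, by a difference of 0.13 ± 0.07 that did not pass (limma adjusted p = 0.860).

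The CAR target Cyp2b10 read 9.65, 11.05 and 10.63 with saline and 10.43, 10.20 and 10.49 with IL-6. Saline replicate 1 was the lowest array and saline replicate 2 the highest, with every IL-6 value between them, and the difference of -0.07 ± 0.29 had a 95% confidence interval from -0.72 to 0.57. Its relatives Cyp2b9 (0.02 ± 0.13) and Cyp2b13 (-0.16 ± 0.11, dim) did not pass either. The 9 Cyp2d genes, some of them close copies, include steroid and drug hydroxylases and ranged from -0.09 to 0.07 with a median of -0.05. Of these, Cyp2d9 read 10.60, 11.27 and 11.29 against 10.84, 11.00 and 11.19 and was lowest in saline replicate 1, Cyp2d10 had a difference of -0.06 ± 0.09, Cyp2d22 of 0.03 ± 0.08 and Cyp2d26 of 0.07 ± 0.09. Cyp2a22, whose difference of 0.44 ± 0.25 was the highest of all members, read 5.34, 4.41 and 5.32 against 5.67, 5.08 and 5.64. Saline replicate 2 and IL-6 replicate 2 were the low arrays, the groups overlapped, and the limma adjusted p was 0.854. Cyp2u1, a fatty acid hydroxylase, had a difference of -0.10 ± 0.09.

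Family 3 held the main drug-metabolising enzymes of mouse liver and split in direction, with 4 differences above 0 and 2 below. Cyp3a11, the PXR target that metabolises the widest range of drugs, read 12.24, 12.15 and 12.17 with saline and 12.12, 12.26 and 12.33 with IL-6. Its groups overlapped and the difference was 0.05 ± 0.08 (95% confidence interval -0.13 to 0.24). Cyp3a13 differed by 0.09 ± 0.14, with saline replicate 2 above all other arrays. Cyp3a25 read 12.21, 12.04 and 12.34 with saline and 11.89, 11.98 and 11.97 with IL-6. All IL-6 values were lower than all saline values, of which that of replicate 2 lay closest, and the difference was -0.25 ± 0.09 (limma adjusted p = 0.626). Cyp3a57 read 3.01, 2.79 and 2.92 against 2.51, 2.66 and 2.47, likewise without overlap (-0.36 ± 0.09). Its limma adjusted p of 0.281 was the lowest of all members, at a level under the 25th percentile of all genes.

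A probe set left out of the count because the annotation gives it 3 symbols, Cyp3a25, Cyp3a57 and Cyp3a59, was also lower with IL-6, at 11.19 ± 0.10 against 10.82 ± 0.10 (SD, n = 3). The difference was -0.36 ± 0.09, with a limma adjusted p of 0.460 over all 35556 probe sets. Because these genes are near copies, the 3 probe sets cannot be taken as separate genes. The start regions of Cyp3a25 and Cyp3a57 show how close the copies are. The windows are the 250 bases before the RefSeq start on GRCm38.p6, chr5:146009619-146009868 on the minus strand and chr5:145345019-145345268 on the plus strand, with capitals reserved for TTCNNNGAA, the letters bound by STAT factors.
Cyp3a25: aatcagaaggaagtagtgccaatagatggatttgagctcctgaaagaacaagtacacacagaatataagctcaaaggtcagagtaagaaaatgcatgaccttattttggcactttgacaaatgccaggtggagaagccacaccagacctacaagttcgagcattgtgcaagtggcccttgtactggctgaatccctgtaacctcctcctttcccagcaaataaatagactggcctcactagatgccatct
Cyp3a57: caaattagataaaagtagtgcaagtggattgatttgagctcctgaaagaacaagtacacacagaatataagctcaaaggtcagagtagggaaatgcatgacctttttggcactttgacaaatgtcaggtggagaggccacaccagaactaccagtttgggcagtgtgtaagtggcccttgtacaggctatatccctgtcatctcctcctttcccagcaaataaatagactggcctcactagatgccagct
In a global alignment, 224 of the 250 bases matched (89.6%), the third-closest of the 1891 pairs of member windows, whose median was 58.4%. Neither window held TTCNNNGAA, so no letter is in capitals. Over all members with a window, 4 of 62 held it, Cyp2j11, Cyp2j12, Cyp4b1 and Cyp4f13 (6.45%, beside 8.13% of all genes). None of these was among the 8 with an unadjusted p under 0.05. At so low a share few of 8 genes would hold it, and not every member had a window. The absence therefore decides nothing about STAT control. The search covers the 250 bases only.

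Family 4, the fatty acid hydroxylases, had 6 differences above 0 and 7 below, with a median of -0.05 and a range from -0.23 to 0.14. The PPARalpha targets that fasting induces were steady: Cyp4a14 read 13.02, 13.07 and 13.09 with saline and 13.06, 13.06 and 13.09 with IL-6, a difference of 0.01 ± 0.07. These values lie near the upper end of the scale, which reached 14.1, where array signals can be compressed. Cyp4a10 read 12.40, 12.50 and 12.48 against 12.33, 12.28 and 12.42. IL-6 replicate 3 lay above saline replicate 1, and the difference was -0.12 ± 0.08 (limma adjusted p = 0.884). Cyp4a31 differed by -0.05 ± 0.08. The 8 Cyp4f genes, which act on leukotrienes and long-chain fatty acids, ranged from -0.17 to 0.14, with Cyp4f13 at -0.05 ± 0.08. Cyp4b1, outside these subfamilies, was at 0.04 ± 0.10.

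The bile acid and oxysterol enzymes gave no common direction, with 4 of 6 differences above 0 and a median of 0.03. Cyp7a1, the rate-limiting enzyme of the classic bile acid pathway, read 10.39, 11.00 and 11.18 with saline and 10.69, 11.13 and 10.65 with IL-6. Saline replicate 1 was lowest and the groups overlapped throughout, with a 95% confidence interval of the difference from -0.48 to 0.41. Cyp7b1, of the alternative pathway, read 9.36, 10.28 and 9.65 against 9.45, 10.21 and 9.71, so that each group held 1 high array. Cyp8b1, which directs synthesis towards cholic acid, read 11.27, 11.88 and 11.83 against 11.61, 11.85 and 11.70. Saline replicate 1 was thus the lowest array for Cyp7a1, Cyp7b1 and Cyp8b1, as it was for Cyp2b10 and Cyp2d9. Other members went the other way: the same array was the highest for Cyp39a1 (9.73), 1 of the 6 genes, and for Cyp2c70 (9.93). The median deviation of the 6 bile acid and oxysterol genes was -0.27 in that array and -0.11 to 0.19 in the other 5.

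Cyp27a1, the mitochondrial enzyme that opens the alternative pathway, read 11.18, 11.40 and 11.43 with saline and 11.35, 11.37 and 11.41 with IL-6, a difference of 0.04 ± 0.08. Cyp46a1, the cholesterol hydroxylase best known from neurons, had all 3 IL-6 values (5.90, 5.99 and 5.86) above the saline values (5.80, 5.72 and 5.83), by 0.13 ± 0.07 in the mean. It did not pass (limma adjusted p = 0.854).

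**Figure D5:**
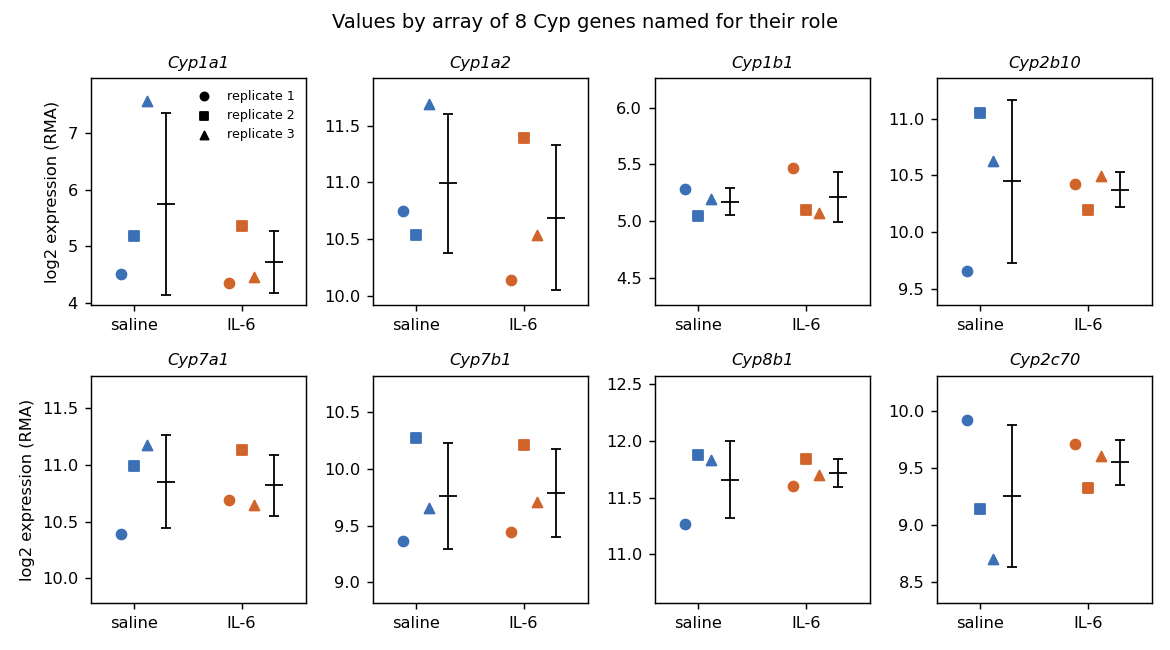
RMA log2 values by array of 8 Cyp genes, saline in blue and IL-6 in orange, symbols for replicates 1 to 3 and black bars for mean ± SD (n = 3); the axis spans 4 log2 units for Cyp1a1 and 2 for the others. Saline replicate 3 (triangle) is highest for Cyp1a1 and Cyp1a2. Saline replicate 1 (circle) is lowest for Cyp2b10, Cyp7a1, Cyp7b1 and Cyp8b1 and highest for Cyp2c70.

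None of the steroid hormone enzymes of families 11 and 21 had an unadjusted p under 0.05, beside 6.62% of all genes. At that share none would be likely among so few genes, so the count decides nothing about them. Cyp17a1, described above, also serves steroid synthesis and did have an unadjusted p under 0.05. In Cyp11b2 the IL-6 values (5.96, 5.85 and 5.89) all lay above the saline values (5.81, 5.71 and 5.83). Its difference of 0.12 ± 0.07 did not pass (limma adjusted p = 0.877). Cyp11a1, which starts steroid synthesis in adrenal and gonad, read 4.20 to 4.52 over the saline arrays and 4.18 to 4.38 over the IL-6 arrays, a difference of -0.05 ± 0.10. Cyp21a1, an adrenal enzyme, had a difference of -0.11 ± 0.10. Adrenal cortex markers, all 4 measured and none called, had a mean level of 4.13 to 4.32 with saline and 4.20 to 4.35 with IL-6. The retinoic acid hydroxylases Cyp26a1 (0.14 ± 0.10) and Cyp26b1 (0.02 ± 0.09) did not pass. Cyp2r1, which carries out the hepatic hydroxylation of vitamin D, had a difference of 0.02 ± 0.11, and Cyp27b1, which activates it in kidney, of 0.14 ± 0.08. Cyp20a1, an orphan enzyme, read 6.55 to 6.75 against 6.52 to 6.67.

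The genes that serve or control P450s were compared in 5 lists. None of 6 measured redox partners was called (median 0.02), the largest difference being that of Cyb5r3, a reductase of cytochrome b5, at 0.07 ± 0.07. Of 12 genes of heme synthesis and breakdown, 1 passed, Hmox1, which encodes heme oxygenase, the enzyme that degrades heme. Hmox1 read 7.09, 6.78 and 6.86 with saline and 7.52, 7.91 and 7.83 with IL-6 and rose by 0.85 ± 0.12 (limma adjusted p = 0.0170). Every IL-6 value was higher. The call held in 2 of the 6 fits that leave out 1 array, those without saline replicate 1 or IL-6 replicate 1, and the limma adjusted p without each other array was 0.0795 to 0.106. Alas1, the rate-limiting enzyme of heme synthesis in liver, had a difference of -0.08 ± 0.16.

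No member of the receptor list was called (0 of 15, median 0.003), with CAR (Nr1i3) at -0.19 ± 0.13 and PXR (Nr1i2) at 0.003 ± 0.10. Of 19 other liver regulators 2 passed, both higher. Nfil3, a repressor that opposes the PAR bZIP activators of several Cyp genes, rose by 1.22 ± 0.08 (limma adjusted p = 0.000144), and Onecut1, a hepatocyte transcription factor that has been linked to Cyp7a1, rose by 0.64 ± 0.10 (limma adjusted p = 0.0333). Nfil3 passed in all 6 fits that leave out 1 array, but Onecut1 in only 1 of them, which left out IL-6 replicate 2; its limma adjusted p was 0.0638 to 0.144 in the others. Cebpb, a transcription factor of the acute phase, had a difference of 0.38 ± 0.12 (limma adjusted p = 0.522). Of 24 conjugation and other xenobiotic enzymes 0 passed, with a median of -0.04 and 9 differences above 0.

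The rule left out 13 probe sets with a Cyp symbol, 6 with 1 symbol of another form and 7 with several symbols. None was called in the fit over all probe sets, from which their values come, with limma adjusted p-values from 0.460 to 0.996. Cyp51, the lanosterol demethylase of cholesterol synthesis, had a difference of 0.10 ± 0.11, and the male-predominant fatty acid hydroxylases Cyp4a12a and Cyp4a12b had 0.12 ± 0.13 and 0.00 ± 0.11. A probe set shared by Cyp2a5 and Cyp2a4, enzymes that hydroxylate coumarin and steroids, had -0.25 ± 0.28. The pseudogene Cyp2d37-ps, named after its value was seen, had -0.30 ± 0.09.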

How the data were processed

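Liver RNA was hybridised to Affymetrix arrays. The deposited values are log2 expression per probe set, made by the authors with RMA per the submitters' processing notes; the genome build is unknown (not given in the sources used here). RMA equalises array distributions, so a shift common to most genes is removed, and near-identical paralogs can share probes. Of 35556 probe sets, 21789 had 1 symbol in the platform annotation and gave 19938 genes, keeping the probe set of highest mean. All 81 members matched the RefSeq gene table (GRCm38.p6) by gene ID, and 62 had a promoter window. Groups were compared with limma 3.58.1 in R 4.3.3 (two-sided, Benjamini-Hochberg over 19938 genes, threshold 0.05). In a simulation of this comparison with 19938 genes, 2% of those shifted by 0.25 log2 units were called, as were 56% of those shifted by 0.5 and 98% of those shifted by 1. In the same run 7 unshifted genes were called. Its noise was independent and normal, with variances drawn from the limma prior over all genes. The median SD was 0.14 over members and 0.11 over all genes, so the shares called may be lower for members, above all the most variable ones. Members and lists were chosen with earlier results of these data known. The text names members with an unadjusted p under 0.05, the 10 of highest mean, a list chosen by role, and in related lists the called genes and up to 4 of smallest p; Ahrr, Nqo1, Alas1, Nr1i2, Cyp2a22 and the other genes outside this rule were chosen after their values were seen. Settings for the Cyp2c genes were added after seeing the data. Windows were aligned with Biopython 1.88.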

Additional observations from a re-analysis of the deposited data

How the results depend on the processing

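The count of 0 higher and 0 lower Cyp genes held under 3 other scalings, 2 filters on dim genes, other probe set choices, other variance priors, array weights, an adjusted p under 0.1 and the replicate block (0 and 0). Each member has 1 probe set, so the probe set choices acted on members only through the other genes and the adjustment. At an unadjusted p under 0.05, the count became 3 higher and 5 lower. Leaving out each array in turn gave 0 higher genes in every case and 0 to 1 lower, the 1 being Cyp17a1 without saline replicate 3. The median over all Cyp genes moved from 0.03 to -0.00016 without saline replicate 1 (range without 1 array -0.00016 to 0.034), and that of family 4 from -0.05 to -0.0048 (range -0.058 to -0.0048), each by more than 1 within-group SD of the arrays' median deviations but by less than the span of those medians over the IL-6 arrays (0.0013 to 0.059 and -0.10 to 0.011); the cause was not tested. The median of family 2 stayed between 0.020 and 0.066 and that of family 3 between -0.012 and 0.069, the lowest without saline replicate 2 and IL-6 replicate 3. Over all genes, 77 were higher and 7 lower, against 15 and 0 with every probe set tested, 31 and 2 without that pair of arrays, and 45 to 67 and 3 to 5 without 1 array. The labels number the replicates but name no pairing. Residuals of same-numbered arrays correlated at 0.08, -0.12 and -0.09 over all genes, which cannot decide whether some genes vary together by replicate number. Of 722 values of named genes under these settings, 50 took the other sign. The variance priors, probe set choices and replicate block could not change a sign, so the share of 50 in 722 understates how often signs moved. No named Cyp gene passed in the main fit. With 3 arrays a group, differences near 0.25 log2 units could seldom pass.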
